A study of Mus musculus with 6 samples.

Results

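Antiviral interferon-stimulated genes were compared between the livers of A/J and A/J-12SM mice. They were taken from a list of 36 genes that type I interferon induces and whose products act against viruses. Each gene was read from 1 probe set annotated to that gene alone, the one with the highest mean log2 signal over the 6 arrays. Several short probes for a transcript make up its probe set and give 1 value. Of the 36 listed genes, 33 were measured, out of 18193 genes in all. Isg15, Oas1g and Ifi44 are not described further because no probe set was named for them alone. The Isg15 probe set is shared with Gm9706.

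Both groups were male mice of the same age. Chow was replaced by a high-fat diet when the animals were 6 weeks old, and livers were taken 7 weeks later, at 13 weeks. A/J is an inbred strain. A/J-12SM is a consomic strain, in which chromosome 12 comes from SM/J and the rest of the genome from A/J, so a difference between the strains cannot be placed on 1 gene of that chromosome. Each of the 3 arrays per strain held liver RNA pooled from 3 mice, so the spread between arrays is the spread between pools and not between animals. All values below are normalized log2 signals, where a step of 1 is a change of a factor of 2, and differences are A/J-12SM minus A/J.

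Type I interferons bind the receptor made of Ifnar1 and Ifnar2, whose kinases Jak1 and Tyk2 activate Stat2. Stat2 and Irf9 are subunits of ISGF3, a transcription factor that binds the interferon-stimulated response element in the promoters of its targets. The targets sense viral RNA, degrade it, block its translation or tag proteins with the ubiquitin-like Isg15. In liver, hepatocytes, Kupffer cells and endothelial cells can all express them.

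Promoters of 26 of the 36 listed genes were in a RefSeq table of the GRCm38.p6 mouse build, which is a C57BL/6J reference and neither A/J nor SM/J. The window of 250 bases before to 50 bases after each transcript start was searched on both strands for the core of the interferon-stimulated response element, which is GAAA, any 2 bases and GAAA again. It was present in 13 of the 26 genes, and in 3.99% of all 27025 genes of the table, each counted if any of its promoters held it. Of the listed genes with this match, 11 were measured, and 5 of these had every A/J-12SM array below every A/J array. Over all measured genes 6.34% did so. The 250 bases before the start are shown for these 5, because they pair a match to the element with such a difference. Capitals mark the matches to the core on either strand.
Ifit1: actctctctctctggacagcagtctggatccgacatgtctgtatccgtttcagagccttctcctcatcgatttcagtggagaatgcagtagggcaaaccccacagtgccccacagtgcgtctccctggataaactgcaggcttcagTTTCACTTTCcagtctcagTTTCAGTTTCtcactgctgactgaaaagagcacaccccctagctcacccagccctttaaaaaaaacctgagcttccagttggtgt
Ifit3: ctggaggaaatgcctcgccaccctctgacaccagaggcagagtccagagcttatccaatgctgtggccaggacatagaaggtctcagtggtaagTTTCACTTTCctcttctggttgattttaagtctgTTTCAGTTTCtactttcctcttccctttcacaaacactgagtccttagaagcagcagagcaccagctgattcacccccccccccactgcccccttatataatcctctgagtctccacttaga
Oas1a: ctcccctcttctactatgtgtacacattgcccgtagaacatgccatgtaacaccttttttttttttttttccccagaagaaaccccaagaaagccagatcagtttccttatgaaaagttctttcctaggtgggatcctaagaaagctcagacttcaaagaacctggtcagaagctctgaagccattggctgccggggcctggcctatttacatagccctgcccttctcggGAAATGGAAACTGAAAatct
Rsad2: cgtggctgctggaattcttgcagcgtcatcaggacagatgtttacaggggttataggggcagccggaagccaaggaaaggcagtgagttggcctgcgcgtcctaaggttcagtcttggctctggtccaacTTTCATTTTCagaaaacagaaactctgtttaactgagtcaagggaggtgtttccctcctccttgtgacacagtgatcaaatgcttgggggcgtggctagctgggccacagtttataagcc
Stat2: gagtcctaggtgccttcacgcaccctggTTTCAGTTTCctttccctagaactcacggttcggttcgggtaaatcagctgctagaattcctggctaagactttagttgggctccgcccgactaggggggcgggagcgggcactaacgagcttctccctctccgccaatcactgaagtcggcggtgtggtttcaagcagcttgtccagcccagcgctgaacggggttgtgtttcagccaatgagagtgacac
The windows lie at chr19:34640639-34640888 (plus strand), chr19:34583279-34583528 (plus strand), chr5:120907526-120907775 (minus strand), chr12:26456453-26456702 (minus strand) and chr10:128270248-128270497 (plus strand). Ifit1 holds matches that begin 104 and 85 bases before the start. Those of Ifit3 begin 156 and 122 bases before it. Oas1a holds a pair of overlapping matches at 20 and 14 bases before the start, Rsad2 a single match at 120 and Stat2 a single match at 222. In Cmpk2, the neighbour of Rsad2, these letters are not in the window. The 11 measured genes with the core had a median difference of -0.14, with 5 free of overlap between the strains, and the 12 without it had a median of -0.40, also with 5. The longer form, in which CT follows the core, was found in 7 of the 26 genes and in 0.303% of all genes of the table. Every match to it contains one to the core. The element bound by STAT dimers, TTCNNNGAA, was found in 5 of the 26 and in 9.55% of all genes of the table.

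The antiviral genes were mostly lower in A/J-12SM liver, by differences that for single genes seldom passed the test. Of the 33 measured genes, 29 had a lower mean in A/J-12SM and 4 a higher one, and 50.9% of all 18193 genes had a lower mean. The median difference was -0.38, against -0.01 over all genes. Only Ly6e fell at an adjusted p under 0.05 by limma with Benjamini-Hochberg adjustment over all 45037 probe sets, and 0.0385% of all genes fell by that rule. No member rose. At an unadjusted p under 0.05 by limma, 14 were lower and 0 higher, with 3.39% of all genes lower and 3.39% higher. In 15 genes all 3 A/J-12SM arrays lay below all 3 A/J arrays, in 0 above, and in 18 the strains overlapped. Over all genes 6.34% were lower and 5.97% higher without overlap. For each of these 15 the exact two-sided permutation test gave p = 0.1, the smallest value that 3 arrays against 3 allow. In whole liver, a smaller number of cells of some type and less RNA in each cell cannot be told apart.

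The counts were similar without dim probe sets, whose spread is wide. Among the 29 members at or above the median brightness of all probe sets, a log2 signal of 5.33, 26 were lower, 15 of them without overlap, with a median difference of -0.39. Of the genes of such brightness over the whole array, 50.6% were lower and 7.17% were lower without overlap. A difference below -0.5 was found for 11 of all 33 measured members, the dim Zbp1 among them. It was found for 2.86% of all genes at or above the median brightness. The members lie on 14 chromosomes. Outside chromosome 12, 27 of 31 were lower and 14 were lower without overlap, with a median of -0.38.

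**Figure D1:**
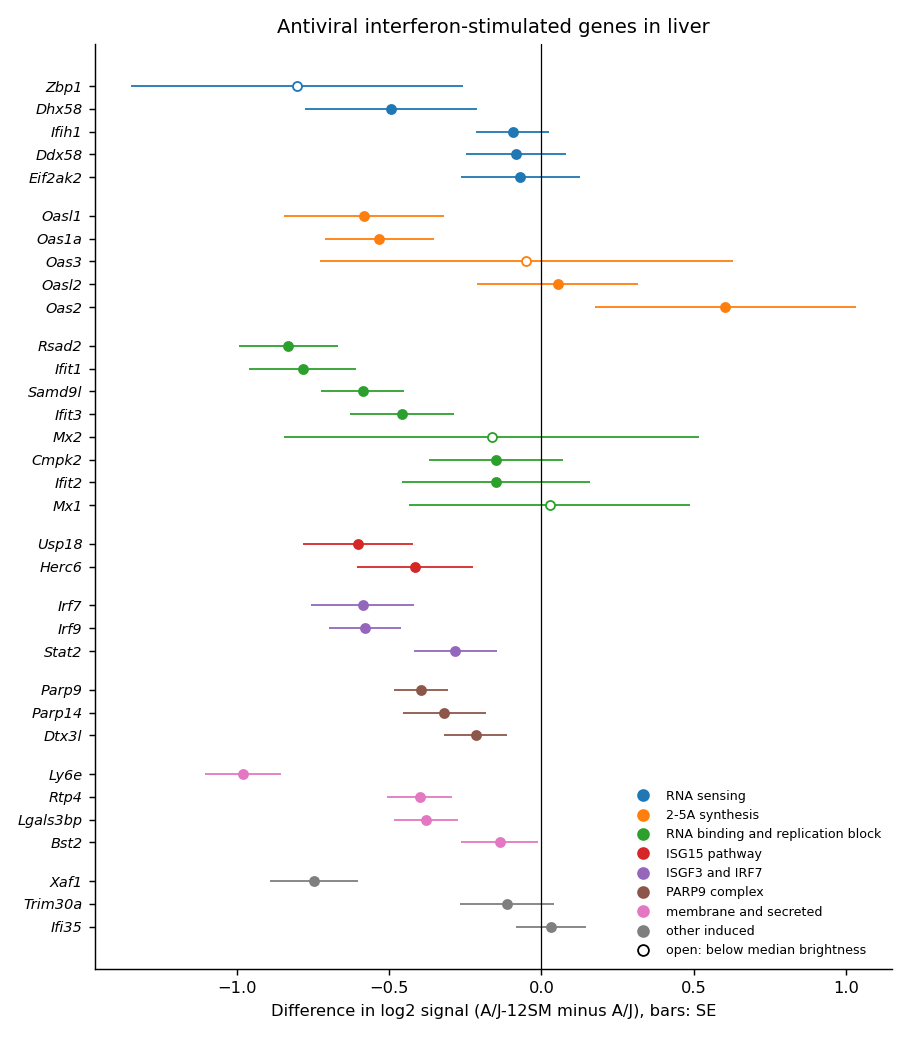
Difference in log2 signal between A/J-12SM and A/J liver (x axis) for each of the 33 measured genes, grouped and coloured by role, with bars of 1 standard error from limma and open circles for genes below the median brightness. 29 points lie left of 0, with Ly6e farthest at -0.98, and 4 lie right of it, of which Oas2 is the farthest at 0.60.

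**Figure D2:**
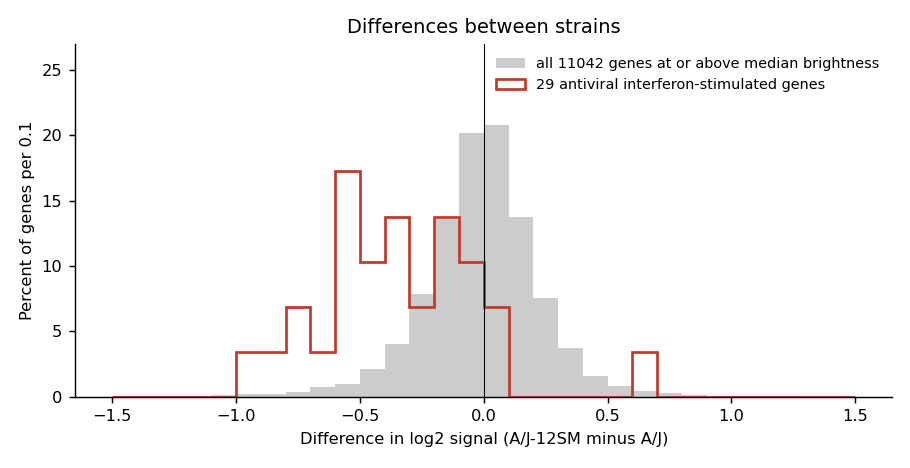
Distribution of the differences in log2 signal, A/J-12SM minus A/J, as the percent of genes in each step of 0.1, for the 29 members (red line) and all 11042 genes (grey) at or above the median brightness; 11 genes lie beyond the axis. The grey distribution is centred near 0, and 26 of the 29 members lie below 0.

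Among the genes whose products sense viral RNA, none stood apart between the strains. Mean values were lower in A/J-12SM for 5 of 5, with 0 at an unadjusted p under 0.05 by limma and 0 without overlap. Ifih1 encodes MDA5, a helicase that senses long double-stranded RNA, and its values were 9.13, 9.12 and 9.36 in A/J, against 9.13, 8.92 and 9.28 in A/J-12SM. The difference was -0.09 (SE 0.12). For Ddx58, which encodes RIG-I, the A/J values were 8.71, 8.21 and 8.21 and the A/J-12SM values 8.30, 8.50 and 8.09. These ranges overlapped, and the difference was -0.08 (SE 0.16). Dhx58, the gene of their regulator LGP2, gave 6.36, 6.66 and 6.97 against 6.71, 6.10 and 5.70. Here the third A/J-12SM array was the lowest, the first lay among the A/J arrays, and the difference was -0.49 (SE 0.28). Its dimmer probe sets disagreed in direction, at -0.53 (SE 0.36) and 0.41 (SE 0.37). Zbp1, a sensor of Z-form nucleic acid, lay below the median brightness, with a difference of -0.80 (SE 0.55). Eif2ak2 encodes PKR, the kinase that stops translation when it binds double-stranded RNA, and differed by -0.07 (SE 0.20). Its probe sets disagreed in size, since another differed by -0.84 (SE 0.21, adjusted p = 0.451 by limma) with no overlap and a further one by -0.20.

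The oligoadenylate synthetases make the messenger that activates RNase L, which degrades viral RNA, and the Oasl genes encode their relatives. They were mixed in direction, with 3 of 5 lower. Oas1a measured 7.76, 8.03 and 7.52 in A/J, against 7.52, 7.10 and 7.09 in A/J-12SM. The strains were separated by less than 0.01 at their nearest arrays, and the difference was -0.53 (SE 0.18, adjusted p = 0.688 by limma). Oasl1, which restrains translation of Irf7, gave 7.24, 7.35 and 6.56 against 6.03, 6.71 and 6.66. One A/J array lay among those of A/J-12SM, and the difference was -0.58 (SE 0.26). Oas2 went the other way, with 4.28, 6.06 and 5.31 against 5.97, 5.95 and 5.55. Its A/J arrays spanned the whole A/J-12SM range, and the difference of 0.60 (SE 0.43, adjusted p = 0.864 by limma) was within the spread. Oas3 and Oasl2 differed by -0.05 (SE 0.68) and 0.05 (SE 0.27), and in the deposited values, where the median of all probe sets is shifted to -0.22, Oasl2 stood at -0.20.

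Of the genes whose products bind viral RNA or block replication, 7 of 8 were lower. Without overlap 4 were lower, or 50%, against 6.34% of all genes. Ifit1 binds RNA whose cap lacks the methylation of host RNA. It measured 6.83, 6.89 and 6.87 in A/J, against 6.13, 6.14 and 5.97 in A/J-12SM. Replicates lay close together and far from the other strain, with a difference of -0.78 (SE 0.18, adjusted p = 0.392 by limma), or 58.1% of the A/J level. Ifit3, which stabilises the RNA binding of Ifit1, differed by -0.46 (SE 0.17) without overlap. Ifit2, a member of the same gene cluster on chromosome 19, differed by -0.15 (SE 0.31), and its arrays overlapped. Samd9l is a cytoplasmic restriction factor of poxviruses, and its values were 8.14, 8.28 and 8.30 against 7.83, 7.70 and 7.42. No arrays overlapped, and the difference was -0.59 (SE 0.14, adjusted p = 0.431 by limma). The GTPases Mx1 and Mx2, which trap viral nucleocapsids, lay below the median brightness and differed by 0.03 (SE 0.46) and -0.16 (SE 0.68), and Mx1 stood at -0.20 in the deposited values with their shift of -0.22.

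Rsad2 and Cmpk2 belong to the same role and are the members that lie on the exchanged chromosome. Rsad2 encodes viperin, which converts CTP into a chain terminator of viral polymerases, and Cmpk2 encodes a kinase that supplies the CTP. The genes are neighbours, Rsad2 at chr12:26442743-26456452 and Cmpk2 at chr12:26469117-26479837 in GRCm38.p6, with 12664 bases between them. Rsad2 measured 8.04, 8.28 and 8.01 in A/J, against 7.59, 7.12 and 7.13 in A/J-12SM. Every A/J-12SM array was lower, by a mean difference of -0.83 (SE 0.16, 95% confidence interval -1.19 to -0.47, adjusted p = 0.306 by limma), or 56.2% of the A/J level. Its other probe sets differed by -0.89 (SE 0.22) and -0.62 (SE 0.22), each without overlap. Cmpk2 measured 6.34, 6.65 and 6.06 in A/J, against 6.20, 6.31 and 6.10 in A/J-12SM. All 3 A/J-12SM arrays lay inside the A/J range, and the difference was -0.15 (SE 0.22, 95% confidence interval -0.64 to 0.34, adjusted p = 0.936 by limma). A second Cmpk2 probe set differed by -0.51 (SE 0.31) with overlap. The intervals of the neighbours overlap between -0.64 and -0.47, while the Rsad2 difference of -0.83 lies outside the interval of Cmpk2. Whether the neighbours differ from each other was not tested. Rnf144a, the nearest other gene above the median brightness, differed by 0.07 (SE 0.25, adjusted p = 0.976 by limma). A base difference between SM/J and the probe sequences can lower the signal of a gene of chromosome 12, and its part in the Rsad2 values was not tested.

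**Figure D3:**
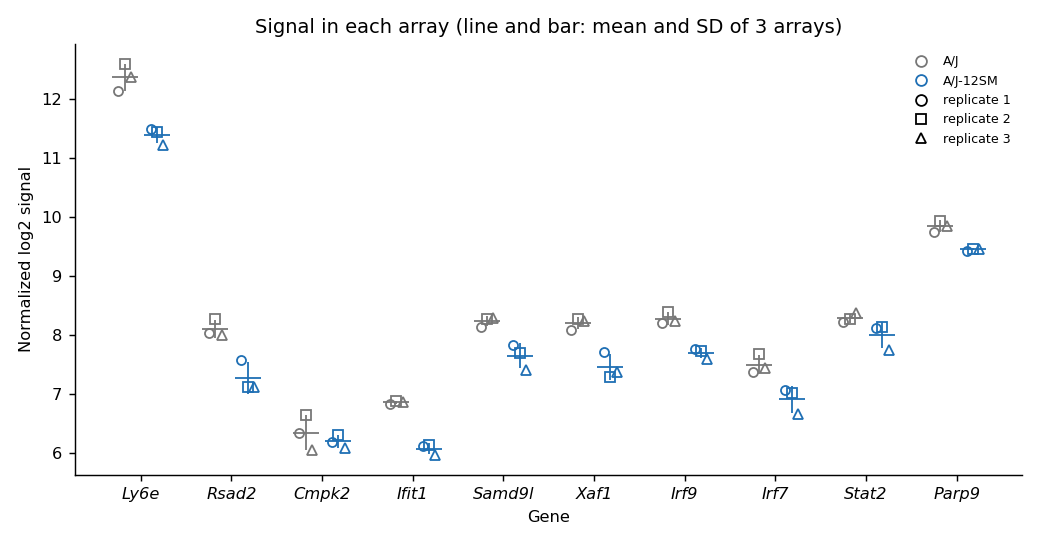
Normalized log2 signal (y axis) of 10 genes in each of the 3 A/J arrays (grey) and 3 A/J-12SM arrays (blue), with the mean as a line, the SD as a bar and a symbol for each replicate. The strains overlap for Cmpk2 and are apart for the other genes shown.

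In the Isg15 pathway, Usp18 removes Isg15 from proteins and holds back signalling at the interferon receptor. It measured 7.53, 8.02 and 7.96 in A/J, against 7.31, 7.43 and 6.96 in A/J-12SM, with no overlap and a difference of -0.60 (SE 0.18, adjusted p = 0.622 by limma). Herc6, the main Isg15 ligase of the mouse, gave 7.60, 8.22 and 8.06 against 7.84, 7.36 and 7.44. The first array of each strain lay among the arrays of the other, and the difference was -0.41 (SE 0.19). Its 4 probe sets were all lower in A/J-12SM, by -0.62 to -0.23.

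The transcription factors that turn these genes on were lower in A/J-12SM in 3 of 3, each without overlap in its brightest probe set, as were 6.34% of all genes. Irf9, the DNA-binding subunit of ISGF3, measured 8.21, 8.40 and 8.24 in A/J, against 7.77, 7.74 and 7.60 in A/J-12SM. The difference was -0.58 (SE 0.12, adjusted p = 0.317 by limma). Irf7, the factor that amplifies interferon alpha production, measured 7.38, 7.68 and 7.45 against 7.08, 7.02 and 6.66. Both strains varied by less than the gap between their means, which was -0.59 (SE 0.17, adjusted p = 0.599 by limma). Stat2, the transactivating subunit of ISGF3, gave 8.22, 8.27 and 8.37 against 8.12, 8.14 and 7.75. The gap between the nearest arrays was small, and the difference was -0.28 (SE 0.14, adjusted p = 0.816 by limma). In a second Stat2 probe set the strains overlapped, with a difference of -0.49 (SE 0.19).

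Parp9 and Dtx3l encode partners in a complex that modifies histones and strengthens the response to interferon, and Parp14 encodes a related ADP-ribosyltransferase. The annotated bodies of Parp9 and Dtx3l overlap, at chr16:35938470-35972621 and chr16:35926515-35939027, and Parp14 lies beside them. Parp9 measured 9.75, 9.94 and 9.86 in A/J, against 9.43, 9.47 and 9.47 in A/J-12SM. It was lower without overlap, with a difference of -0.39 (SE 0.088, adjusted p = 0.392 by limma). Parp14 gave 7.89, 8.30 and 8.19 against 7.85, 7.72 and 7.85, with a difference of -0.32 (SE 0.14). The lowest A/J array stood just above the highest A/J-12SM arrays. Dtx3l gave 9.67, 9.67 and 9.43 against 9.29, 9.47 and 9.37, with overlap and a difference of -0.22 (SE 0.10). A second Dtx3l probe set differed by -0.68 (SE 0.16, adjusted p = 0.432 by limma) without overlap, so its probe sets disagreed in size.

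Ly6e, a membrane-anchored surface protein that restricts the entry of some viruses, was the only member lower at an adjusted p under 0.05. Its values were 12.13, 12.60 and 12.38 in A/J, against 11.49, 11.45 and 11.23 in A/J-12SM. All A/J-12SM arrays were lower, by a mean of -0.98 (SE 0.12, 95% confidence interval -1.26 to -0.70, adjusted p = 0.0391 by limma), or 50.7% of the A/J level. A second Ly6e probe set did not share this, with a difference of -0.18 (SE 0.30, adjusted p = 0.944 by limma), and the call rested on the first alone. The call was also lost without any single array other than the first A/J array, with adjusted p between 0.0678 and 0.236 by limma, and with each array centred on its median (adjusted p = 0.246). Rtp4, a chaperone of surface receptors that also restricts flaviviruses, measured 9.14, 9.39 and 9.47 against 8.93, 8.91 and 8.96. The strains did not overlap, and the difference was -0.40 (SE 0.11). Lgals3bp, a secreted glycoprotein that binds galectin-3, gave 9.21, 9.49 and 9.32 against 9.0, 9.02 and 8.85. It was lower without overlap as well, with a difference of -0.38 (SE 0.11). Bst2, which encodes tetherin and holds budding virions at the cell surface, differed by -0.14 (SE 0.13) with overlap.

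Of the remaining genes, Xaf1, an antagonist of the apoptosis inhibitor XIAP, measured 8.09, 8.27 and 8.25 in A/J, against 7.71, 7.29 and 7.38 in A/J-12SM. There was no overlap, and the difference was -0.75 (SE 0.14, adjusted p = 0.278 by limma). Trim30a, a ubiquitin ligase that restrains inflammatory signalling, gave 6.91, 7.25 and 7.14 against 6.95, 7.02 and 6.99. The A/J-12SM arrays lay inside the A/J range, and the difference was -0.11 (SE 0.16). Ifi35, the partner of Nmi, gave 10.38, 10.48 and 10.57 against 10.35, 10.43 and 10.75. Its difference of 0.03 (SE 0.12) stood at -0.18 in the deposited values with their shift of -0.22. In all, 15 members had more than 1 probe set, and of their 22 other probe sets 20 were lower in A/J-12SM and 0 were called.

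Many members were high or low in the same arrays of a strain. Centred on its mean over the 6 arrays, the average member stood at -0.01, 0.33 and 0.20 in the A/J arrays and at -0.10, -0.18 and -0.24 in the A/J-12SM arrays. The first A/J array held the lowest A/J value of 22 members, and the second held the highest of 21. Shares of all genes are not given for these counts. Among the 29 members at or above the median brightness, deviations from the strain means had a median correlation of 0.32 between members. Between all 11042 genes of such brightness it was -0.0008, and the difference was not tested. The first A/J array alone lay above all A/J-12SM arrays in 19 members, or 57.6% of them, and each of the others in 24, or 72.7%. Over all genes these shares were 25.8%, 25.5% and 22.4%. Summed over the members, the linear signal was 14000 to 17132 in A/J and 10888 to 11499 in A/J-12SM. The brightest member weighs most in this sum. It was Ly6e, with log2 signals of 12.13 to 12.60 in A/J and 11.23 to 11.49 in A/J-12SM.

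Genes upstream of the members are given by list, and the difference between the lists was not tested. Of 20 interferon genes 9 were measured, 2 of them at or above the median brightness, and 4 were lower and 5 higher with a median of 0.34. The brighter ones were Ifna1, which differed by 0.99 (SE 0.81), and Ifna2, which differed by -0.28 (SE 0.24), both with overlap. Ifng, which is dim, was the only interferon gene lower without overlap, at -1.74 (SE 0.88). All 9 listed receptor subunits and kinases were measured, with 5 lower, 0 at an unadjusted p under 0.05 by limma and a median of -0.05. Ifnar1 differed by 0.03 (SE 0.13), Ifnar2 by -0.06 (SE 0.10), Ifngr1 by -0.28 (SE 0.19), Jak1 by 0.17 (SE 0.11) and the shared receptor chain Il10rb by -0.11 (SE 0.17). The other transcription factors of the pathway had 2 of 5 lower and a median of 0.03. Among these Irf1 differed by -0.12 (SE 0.13), Irf5 by 0.17 (SE 0.26) and Irf8 by -0.43 (SE 0.27). Sensors and adaptors that start interferon production had 5 of 9 lower and a median of -0.04. Tlr9 at 0.29 (SE 0.28), Ikbke at 0.22 (SE 0.19) and Mavs at 0.20 (SE 0.15) overlapped. Myd88 at -0.19 (SE 0.11) and Tbk1 at -0.08 (SE 0.08) were lower without overlap. These are 22.2% of the list, against 6.34% of all genes. None of these genes passed the adjusted test.

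Inhibitors of the pathway had 2 of 7 lower and a median of 0.14. The cytokine signalling suppressors Socs3 and Cish differed by 0.63 (SE 0.43) and 0.52 (SE 0.31) with overlap. Ptpn2, a phosphatase that acts on Jak1, differed by 0.41 (SE 0.13, adjusted p = 0.640 by limma), with every A/J-12SM array above every A/J array. Ptpn6, a phosphatase of blood cells, went the other way without overlap, by -0.35 (SE 0.14, adjusted p = 0.776 by limma). A further list of 50 antiviral interferon-stimulated genes, 46 of them measured, had 30 lower and a median of -0.16. In it 7 (15.2%, against 3.39% of all genes) were lower and 0 higher at an unadjusted p under 0.05 by limma, and 0 were called. Without overlap 11 were lower, or 23.9% of the list, against 6.34% of all genes. Its largest differences among brighter genes were those of Ifi27 at -0.93 (SE 0.16, adjusted p = 0.160 by limma), Mlkl at -0.91 (SE 0.27) and Ifi27l2a at -0.53 (SE 0.21), and Ifi27 and Ifi27l2a also lie on chromosome 12.

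Values of macrophage markers were mostly lower in A/J-12SM as well, and those of hepatocytes were not. All 10 hepatocyte markers were bright, at 11.998 to 14.567, with a median difference of 0.03. Without overlap 0 were lower and 3 higher, with 5.97% of all genes higher. Their summed signals were 157076 to 159117 in A/J and 161924 to 163116 in A/J-12SM. Of 16 Kupffer cell and macrophage markers, all at or above the median brightness, 15 were lower in A/J-12SM, with a median of -0.29. At an unadjusted p under 0.05 by limma 5 (31.25%) were lower, against 3.39% of all genes. Without overlap 3 (18.75%) were lower, against 6.34% of all genes and 7.17% of those at or above the median brightness. No macrophage marker was called. Marco differed by -0.66 (SE 0.42) and Fcgr1 by -0.56 (SE 0.24), both with overlap. The 3 markers without overlap were Aif1 at -0.59 (SE 0.21), Mpeg1 at -0.46 (SE 0.13) and Cd5l at -0.43 (SE 0.11). Their summed signal was 9344 to 11854 in A/J and 8254 to 9980 in A/J-12SM, and the strains overlapped. The lowest A/J array, with 9344 for the markers, was below the first A/J-12SM array with 9980. The sums of the antiviral genes in these arrays were 14000 and 11499, and their average centred log2 levels were -0.01 and -0.10. The antiviral genes were chosen with earlier results known, so the lists are not on an equal footing. T and NK cell markers had 9 of 11 lower and a median of -0.43, with 9 below the median brightness and summed signals of 291 to 328 in A/J and 173 to 314 in A/J-12SM. B cell markers, plasmacytoid dendritic cell markers, neutrophil markers and sinusoidal endothelial markers had medians of 0.25, -0.23, 0.06 and -0.02. Whether the number of macrophages or lymphocytes has a part in the values of the antiviral genes was not tested.

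**Figure D4:**
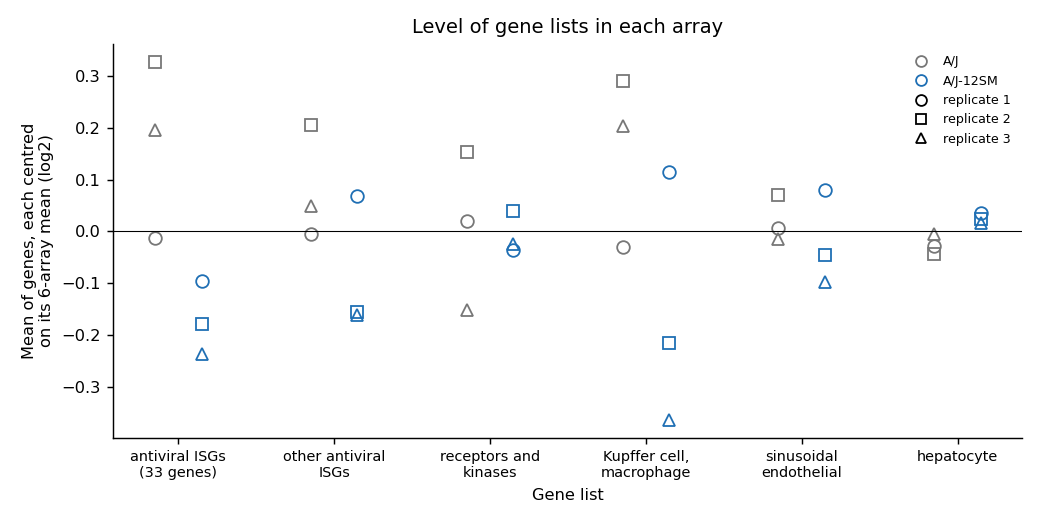
Mean log2 level of 6 gene lists in each array (y axis), each gene centred on its mean over the 6 arrays, for A/J (grey) and A/J-12SM (blue) with a symbol for each replicate. The 3 A/J arrays lie above the 3 A/J-12SM arrays for the antiviral genes, at -0.01 to 0.33 against -0.24 to -0.10, and among the macrophage markers the first arrays of the strains are in the opposite order.

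The arrays also differed by strain in their deposited level, with trimmed mean signals of 200.5 to 213.2 in A/J and 170.5 to 185.8 in A/J-12SM, and the normalization removed this. The ratio of the beta-actin signal at its 5′ end to that at its 3′ end, a measure of RNA integrity, was 0.571 to 0.590 in A/J, 0.553 and 0.561 in the first A/J-12SM arrays and 0.423 in the third. The same ratio for Gapdh was 1.45 to 1.54 in A/J and 1.48 to 1.55 in A/J-12SM, with 1.53 in the third array. The same array held the lowest A/J-12SM value of 16 members. Without it, 16 members were lower without overlap and the median difference was -0.34, against 15 and -0.38 with all arrays. With an array fewer a lack of overlap is easier to meet, so the counts cannot be compared. The share of all genes without overlap in that setting is not given.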

How the data were processed

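Liver RNA was hybridised to 6 one-colour Affymetrix arrays. The authors deposited intensity values, 1 linear MAS5 signal per probe set and array, and the scaling target is not given in the sources used here. Strain and replicate number were read from the labels. Signals were converted to log2 and quantile-normalized here, since the deposited levels differed by strain. This assumes that most genes do not differ. The deposited log2 values were kept as an alternative. The 64 control probe sets were dropped, and limma 3.58.1 (R 4.3.3) was run on the other 45037 with a trend on brightness and no covariate. Genes were called at a Benjamini-Hochberg adjusted p under 0.05. They were named by the platform annotation of 2016, updated through GRCm38.p6, with 34741 of 34945 probe sets of 1 gene matched. A further 932 had several genes and 9160 none.

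The members, their roles and the other lists were chosen with earlier results of these data known, and no test was made over a list. All members were named. Values per array are given for called members, for Rsad2 and Cmpk2 and, in each role, for up to 3 members with the largest difference at or above the median brightness. For other lists, up to 3 such genes were named, with Irf1, Ifnar1 and Ifnar2. Ptpn6, Myd88, Tbk1, Cd5l and Mpeg1 were added after their values were seen, as was Ifng, which is below the median brightness.

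The labels call the arrays biological replicates. The typical SD between them on the log2 scale was 0.21 where probe sets were bright and 0.86 where they were dim, and the number of arrays limits the precision. Deviations of arrays with the same replicate number correlated at -0.07, 0.11 and 0.17 across probe sets, so the numbers were not taken as pairs. The limma step was tested on simulated data of this comparison, with 200 of 45037 probe sets changed in each of 5 runs. It recovered 1.6% of changes of 0.5, 15.2% of 1, 45.2% of 2 and 60.4% of 3 on the log2 scale, and 3.16% of its calls were false. The changed probe sets were drawn at random from all 45037, dim ones included. Most members are bright, where the spread is smaller, so these shares do not give the recovery for the members. The alternatives were other scalings, an offset of 9.2 (the 20th percentile), a filter at the 40th percentile, a single prior variance, the methods' t-test, a replicate block, the mean over a gene's probe sets and the omission of each array. Plots were made by matplotlib 3.10.9 (Python 3.11.15).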

Additional observations from a re-analysis of the deposited data

How the results depend on the processing

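Among the members, 1 was called lower with signals scaled to 1 trimmed mean, with dim probe sets left out and with the replicate block. In the deposited values 3 were, and 0 were with each array centred on its median or each gene averaged over its probe sets. The count was also 0 with the methods' t-test, with an offset added and with a single prior variance. Without single arrays it ranged from 0 to 1. The 3 in the deposited values were Ly6e, Rsad2 at -1.06 (adjusted p = 0.0396 by limma) and Xaf1 at -0.97 (0.0320). Over the alternatives the adjusted p ranged from 0.00578 to 0.625 for Ly6e, from 0.0396 to 0.893 for Rsad2 and from 0.0320 to 0.893 for Xaf1. The median difference was -0.60 in the deposited values, where the median of all probe sets was -0.22, and -0.44 to -0.30 without single arrays. By the methods' t-test 12 members had an unadjusted p under 0.05 and 0 passed after Benjamini-Hochberg adjustment. Members with a lower value numbered 27 to 32, those at an unadjusted p under 0.05 11 to 21, and those without overlap 14 to 21 over all alternatives run. The highest of each came from the deposited values, where 74.2% of all probe sets were lower, and the shift of -0.22 by itself moves these counts up. A lack of overlap is also easier to meet with an array left out. The shares of all genes at an unadjusted p under 0.05 and without overlap are given for the main setting alone. The counts of the alternatives therefore have no such share beside them.

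Over all probe sets, 14 were called lower and 11 higher, against 38 and 9 in the deposited values, 8 and 11 with each array centred on its median, 14 and 14 with the replicate block, and 1 and 0 both with a single prior variance and by the t-test. Under the replicate block 13 members had an unadjusted p under 0.05, and no call of a member changed.

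In the deposited values, with that shift, Ifi35 stood at -0.18, Mx1 at -0.20 and Oasl2 at -0.20, and with the mean over probe sets Ifi35 stood at -0.0747 and Trim30a at 0.0181. Without single arrays, the sign was not constant for Cmpk2 (-0.29 to 0.0012), Ddx58 (-0.18 to 0.0839), Eif2ak2 (-0.21 to 0.0852), Ifi35 (-0.0882 to 0.11), Ifih1 (-0.18 to 0.0001), Ifit2 (-0.41 to 0.0382), Mx1 (-0.40 to 0.32), Mx2 (-0.89 to 0.35), Oas3 (-0.64 to 0.42) and Oasl2 (-0.13 to 0.15). The cause was not tested. In all, 458 of 493 values of single genes kept their direction and side of the threshold, 23 changed sign, 10 lost the call and 2 gained it.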
